A study of Musa acuminata AAA Group with 4 samples.

Results

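ABC and MATE transporters are membrane proteins that move organic compounds out of the cytoplasm, and 33 of their genes are described here, of the 5520 genes that differ in leaf or root of banana seedlings under low potassium. A gene was taken where its deposited protein description names an ABC transporter, a MATE efflux protein or a DETOXIFICATION protein. No description used the last of these names. The 33 genes comprise 24 ABC genes (2 of subfamily A, 5 of B, 6 of C and 11 of G) and 9 MATE genes. Of these, 7 are listed in leaf and 29 in root, with 3 listed in both tissues.

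The plants were Cavendish banana, a dessert banana of the AAA group, grown for 60 days in a low-potassium solution or in complete Hoagland solution as the control. Polyadenylated RNA was sequenced from low-potassium leaf, normal-potassium leaf, low-potassium root and normal-potassium root, with 1 library for each. The labels do not say how many plants a library holds. No difference below has a replicate check, and no p-value was computed here. The p-values deposited by the authors rest on the same single libraries and were used for no call. Each library had between 4203693 and 4555265 fragments assigned to genes, as computed from the deposited values. In a whole tissue, fewer cells of a type and less RNA per cell cannot be told apart.

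ABC transporters are pumps that use ATP to carry substrates across membranes. Plant subfamily B includes auxin carriers, subfamily C includes pumps that load glutathione conjugates and other compounds into the vacuole, and subfamily G includes exporters of hormones and of the lipids that form cutin, wax and suberin. MATE proteins, also called DETOXIFICATION proteins in Arabidopsis, exchange their substrates for protons or sodium, and carry flavonoids, alkaloids, citrate or toxins. In roots, such carriers serve the release of compounds into the soil, the loading of the xylem and the building of barriers in the cell wall.

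The deposited table of each tissue holds the genes that passed the authors' limits, so every member differs there by at least 2-fold and its listing is no finding. In leaf 5 of the 7 members were higher in low potassium, beside 67.4% of all genes in that table. In root 13 of 29 members were higher, beside 40.4%. The median log2 ratio of low over normal potassium was 1.60 for leaf members and 1.32 for all listed leaf genes. It was -1.34 for root members and -1.20 for all listed root genes. Taken as a whole, the members thus lay close to the rest of each table, and in root the families within them did not lie at the same place. In root 6 of 8 MATE genes were higher, against 7 of 21 ABC genes, and the median log2 ratio was 1.97 for MATE and -1.50 for ABC genes. In leaf 1 of 2 MATE genes was higher, with log2 ratios of 2.35 for Ma02_g11730 and -1.06 for Ma11_g18130. Of the ABC genes listed in leaf, 4 of 5 were higher (median 1.60), beside 67.4% of all listed leaf genes. These are too few genes to set an order of the families in leaf. These family values describe the ratios by which the genes were listed, and no test was possible. The family counts also depend on the names. They leave out 4 ABC pumps listed in root under other names, of which 3 were higher and 1 lower. Those 4 genes summed to 170 FPKM in low-potassium root and 53.2 FPKM in normal-potassium root. In leaf 2 genes of these families go by other names, and both were lower. Just inside the limit lay the root gene Ma08_g14470, with a log2 ratio of 1.001. Genes just outside it were not analysed here.

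**Figure D1:**
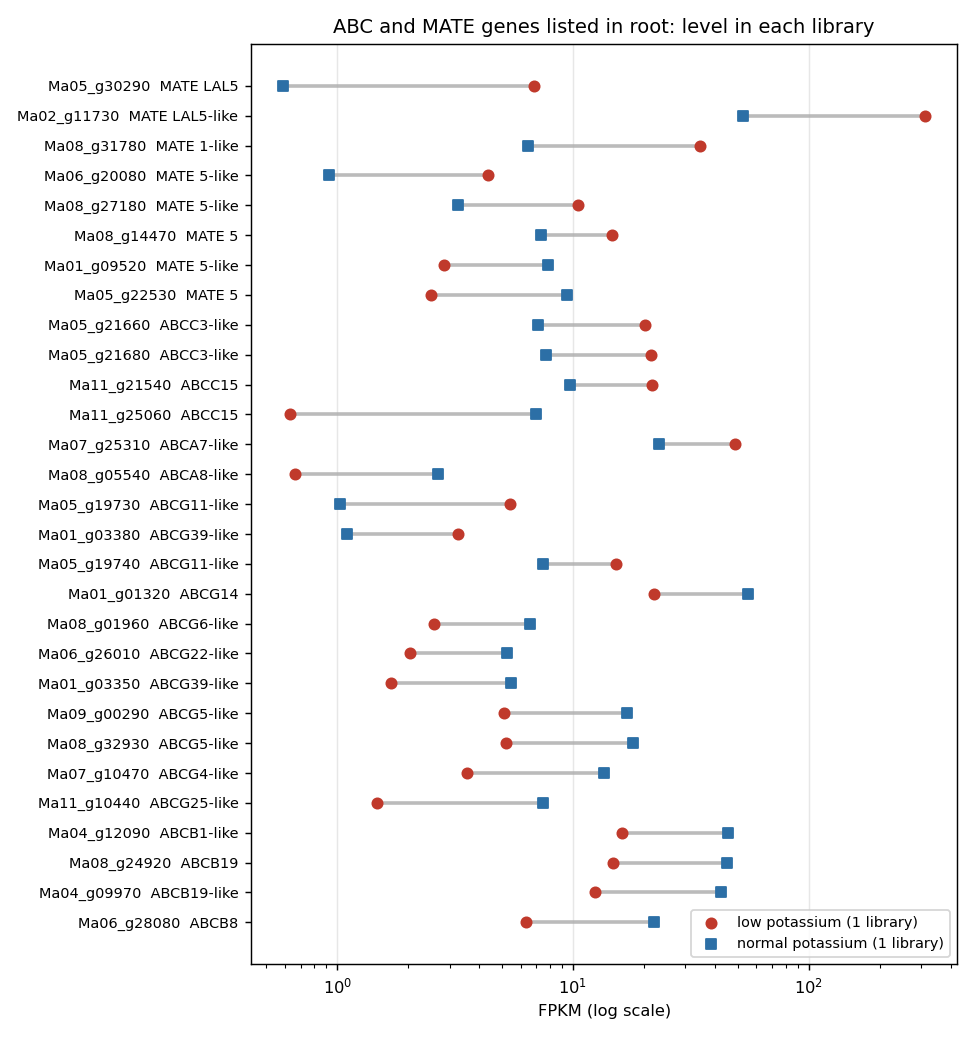
Level of each of the 29 root members in low-potassium root (red circles) and normal-potassium root (blue squares), in FPKM on a log scale, 1 library per point, grouped by family. The MATE gene Ma02_g11730 stands far to the right at 312 FPKM in low potassium, and all 4 ABCB genes at the bottom have the low-potassium point on the left.

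The MATE genes of root were led by a gene named after Arabidopsis LAL5, a relative of ALF5, which protects roots from toxins. This LAL5-like gene, Ma02_g11730, measured 312 FPKM (fragments per kilobase of gene, scaled to the library total) in low-potassium root and 52.5 FPKM in normal-potassium root. It was 5.94-fold higher in low potassium, with a 95% interval of 5.32 to 6.65. Intervals here are exact binomial intervals of the counts, and cover counting error only. No other member reached its low-potassium level in any library. The gene made up 80.4% of the summed FPKM of the MATE genes in low-potassium root and 59.5% in normal-potassium root. Without it, the summed level of the other 7 MATE genes was 76.1 FPKM in low-potassium root and 35.8 FPKM in normal-potassium root.

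Another gene with the LAL5 name, Ma05_g30290, was at 6.83 FPKM in low-potassium root and 0.59 FPKM in normal-potassium root. Its ratio of 11.6-fold was the largest increase among the 33 genes, but it rests on 44 fragments in low and 4 in normal potassium, and its interval runs from 4.21 to 44.4. The MATE 1-like gene Ma08_g31780 measured 34.4 FPKM in low-potassium root and 6.46 FPKM in normal-potassium root (5.33-fold higher, interval 3.87 to 7.48). With Ma06_g20080, the LAL5-like, LAL5 and 1-like genes make 4 of 8 MATE genes past 4-fold. Among all 29 root members 8 were past 4-fold in either direction, beside 39.0% of all listed root genes.

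The 5 MATE genes described as protein 5 or 5-like were split, with 3 higher and 2 lower. The gene Ma08_g27180 was at 10.6 FPKM in low-potassium root and 3.24 FPKM in normal-potassium root (3.26-fold higher, interval 2.01 to 5.46). Ma06_g20080 was 4.73-fold higher at low levels (4.35 FPKM in low and 0.92 FPKM in normal potassium, interval 1.93 to 14.1), and Ma08_g14470 2.001-fold higher (14.7 FPKM in low and 7.32 FPKM in normal potassium, interval 1.40 to 2.90). In the other direction, Ma05_g22530 was 3.79-fold lower, at 2.49 FPKM in low-potassium root and 9.43 FPKM in normal-potassium root (interval 2.20 to 6.87). Ma01_g09520 was 2.74-fold lower (2.85 FPKM in low and 7.82 FPKM in normal potassium, interval 1.60 to 4.90). In normal potassium the levels of these 5 genes ran from 0.92 to 9.43 FPKM, and the genes that were lower were then the most abundant of them. In low potassium the order was turned, with both of them at the bottom.

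**Figure D2:**
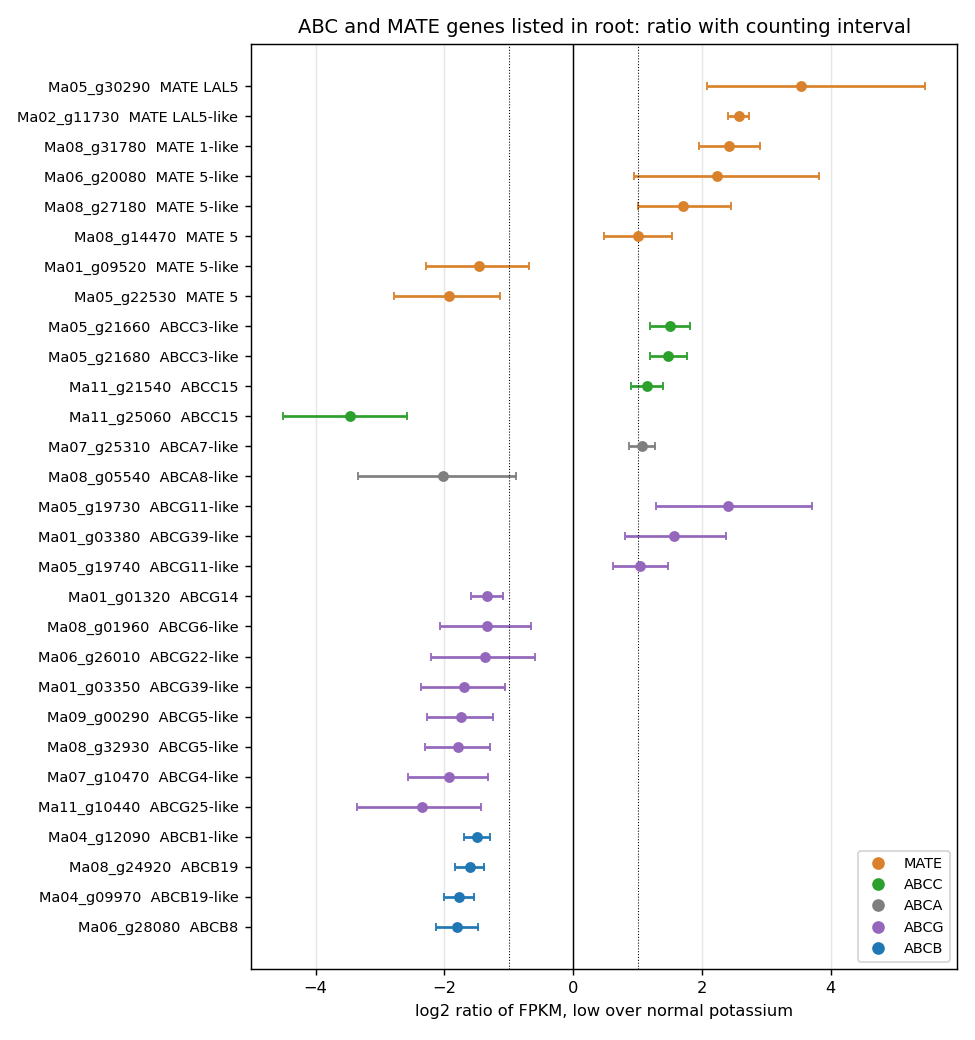
Log2 ratio of FPKM in low over normal potassium for the 29 root members, with 95% counting intervals as bars and dotted lines at a 2-fold difference, coloured by family. MATE genes reach a log2 ratio of 3.53 at the top, all 4 ABCB genes lie between -1.80 and -1.50, and the putative ABCC15 gene Ma11_g25060 lies lowest at -3.47.

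All 4 root genes described as ABC transporters of subfamily B were lower in low potassium, beside 59.6% of all listed root genes. The count depends on the name: Ma04_g26720, described as a putative multidrug resistance protein and matched to subfamily B in the deposited KEGG column, was 6.73-fold higher, at 27.2 FPKM in low-potassium root and 4.04 FPKM in normal-potassium root (interval 4.56 to 10.2). Subfamily B includes ABCB1 and ABCB19 of Arabidopsis, which export auxin and take part in its transport along the plant. The ABCB1-like gene Ma04_g12090 was at 16.2 FPKM in low-potassium root and 45.6 FPKM in normal-potassium root, 2.82-fold lower (interval 2.46 to 3.24). Of the genes named ABCB19, Ma04_g09970 was at 12.5 FPKM in low and 42.4 FPKM in normal potassium (3.40-fold lower, interval 2.91 to 3.997). Its counterpart Ma08_g24920 was at 14.8 FPKM in low and 44.9 FPKM in normal potassium (3.04-fold lower, interval 2.61 to 3.57). The ABCB8 gene Ma06_g28080 was 3.49-fold lower, at 6.33 FPKM in low and 22.1 FPKM in normal potassium (interval 2.79 to 4.40). The folds of the 4 genes lay close together, and the interval of each overlapped that of each of the others. The counts of the ABCB19 copies add up to whole numbers as a pair, as described below. Their values may therefore not be separate measurements, and the intervals do not cover how fragments were shared out. The summed level of the 4 genes was 49.7 FPKM in low-potassium root and 155 FPKM in normal-potassium root. This was the largest loss of any family among the root members.

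Next to these pumps, auxin leaves cells through PIN proteins, the auxin efflux carriers. Both efflux carrier genes listed in root were lower, beside 59.6% of all listed root genes. Auxin efflux carrier component 2 (Ma01_g09070) was at 13.8 FPKM in low-potassium root and 152 FPKM in normal-potassium root, 11.04-fold lower (interval 9.08 to 13.5). Component 1c (Ma03_g07240) was at 10.3 FPKM in low and 20.8 FPKM in normal potassium. The leaf table lists no efflux carrier of this name.

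In root, 3 of 4 listed genes of subfamily C were higher in low potassium, beside 40.4% of all listed root genes. In leaf all 3 were higher, beside 67.4% of all listed leaf genes, a count too small to set apart from that share. The ABCC3-like genes are named after an Arabidopsis vacuolar pump for glutathione conjugates and chlorophyll breakdown products. Ma05_g21680 was at 21.4 FPKM in low-potassium root and 7.69 FPKM in normal-potassium root (2.78-fold higher, interval 2.28 to 3.39), and Ma05_g21660 at 20.1 FPKM in low and 7.11 FPKM in normal potassium (2.83-fold higher, interval 2.28 to 3.54). Thus these neighbours in gene number had nearly the same level and the same ratio. Their counts are not whole and add up to whole numbers as a pair, as described below. The values of the copies may therefore not be separate measurements.

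Genes named putative ABCC15 went opposite ways in root. Ma11_g21540 was 2.22-fold higher, at 21.7 FPKM in low and 9.75 FPKM in normal potassium (interval 1.87 to 2.63). Ma11_g25060 was 11.1-fold lower, at 0.63 FPKM in low and 6.97 FPKM in normal potassium (interval 5.98 to 22.7), the largest decrease among the 33 genes. The sum of both was 22.3 FPKM in low-potassium root and 16.7 FPKM in normal-potassium root, so that nearly all of it came from Ma11_g21540 in low potassium.

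Glutathione S-transferases are the enzymes that make the conjugates carried by ABCC pumps. Of the 14 listed in root, 11 were higher, beside 40.4% of all listed root genes. All 9 listed in leaf were higher, beside 67.4% of all listed leaf genes. The transferase U10-like gene Ma05_g11740 was at 633 FPKM in low-potassium root and 98.4 FPKM in normal-potassium root (6.43-fold higher, interval 5.65 to 7.35). This gene was also higher in leaf, at 64.8 FPKM in low and 17.7 FPKM in normal potassium. The most abundant transferase, GSTF1 (Ma02_g04250), was at 2205 FPKM in low-potassium root and 1079.5 FPKM in normal-potassium root. Genes named parA were found in both directions in root. Ma09_g26490 was lower, at 28.7 FPKM in low and 106 FPKM in normal potassium. Also lower was Ma10_g09500, at 78.0 FPKM in low and 157 FPKM in normal potassium. Ma09_g26580 was higher, at 35.9 FPKM in low and 1.99 FPKM in normal potassium (18.05-fold, interval 7.56 to 47.6).

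Of the 11 ABCG genes listed in root, 8 were lower in low potassium, beside 59.6% of all listed root genes, and 3 were higher. Their summed level was 67.6 FPKM in low-potassium root and 138 FPKM in normal-potassium root. The 3 root genes described as pleiotropic drug resistance proteins, which are ABCG-type pumps under another name, are not in this count. Of them 2 were higher, and they summed to 143 FPKM in low-potassium root and 49.1 FPKM in normal-potassium root. Among the 11 genes, the most abundant was ABCG14 (Ma01_g01320), whose Arabidopsis counterpart loads cytokinin for transport from root to shoot. It was at 22.05 FPKM in low-potassium root and 55.5 FPKM in normal-potassium root, 2.52-fold lower (interval 2.12 to 2.998). In normal-potassium root this was the highest level of any member, just above that of the LAL5-like gene. The ABCG25-like gene Ma11_g10440 is named after an Arabidopsis exporter of abscisic acid. It was at 1.47 FPKM in low-potassium root and 7.46 FPKM in normal-potassium root (5.07-fold lower, interval 2.71 to 10.3).

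Lipid exporters of subfamily G were found in both directions. ABCG11 of Arabidopsis exports cutin and wax components, and both ABCG11-like genes were higher in low potassium. Ma05_g19740 was at 15.2 FPKM in low-potassium root and 7.43 FPKM in normal-potassium root (2.05-fold higher, interval 1.53 to 2.77), and Ma05_g19730 at 5.43 FPKM in low and 1.03 FPKM in normal potassium (5.27-fold higher, interval 2.45 to 13.1). ABCG5 and ABCG6 have been tied to cuticle and suberin formation in rice and Arabidopsis, and these genes were lower. The ABCG5-like gene Ma08_g32930 was at 5.18 FPKM in low-potassium root and 17.9 FPKM in normal-potassium root (3.45-fold lower, interval 2.46 to 4.93). Its partner in name, Ma09_g00290, was at 5.09 FPKM in low and 17.0 FPKM in normal potassium. The ABCG6-like gene Ma08_g01960 was at 2.58 FPKM in low and 6.55 FPKM in normal potassium (2.54-fold lower, interval 1.58 to 4.20). The counts of the ABCG11-like copies add up to whole numbers as a pair, as do those of the ABCG5-like copies, as described below. The values of the copies within each pair may therefore not be separate measurements.

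The remaining short ABCG genes were lower as well. ABCG4-like (Ma07_g10470) was at 3.56 FPKM in low-potassium root and 13.5 FPKM in normal-potassium root (3.79-fold lower, interval 2.51 to 5.91). ABCG22-like (Ma06_g26010), whose Arabidopsis namesake bears on water loss through stomata, was at 2.03 FPKM in low and 5.26 FPKM in normal potassium. The long genes of this subfamily, both named ABCG39-like, with 3735 and 4035 bases against 1764 to 2280 bases for the others, had opposite directions. Ma01_g03380 was at 3.25 FPKM in low-potassium root and 1.10 FPKM in normal-potassium root (2.95-fold higher, interval 1.75 to 5.20). Ma01_g03350 was at 1.69 FPKM in low and 5.46 FPKM in normal potassium (3.23-fold lower, interval 2.08 to 5.16). Their gene numbers are neighbours, their counts are whole numbers, and Ma01_g03380 was the more abundant copy in low potassium and Ma01_g03350 in normal potassium. Summed, they were at 4.94 FPKM in low-potassium root and 6.56 FPKM in normal-potassium root.

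Enzymes that make the lipids of cutin, wax and suberin were listed for 14 genes in root. Of these 5 were higher, beside 40.4% of all listed root genes, and 9 were lower, so the counts lay near those of the whole table. By their names 2 of the lower genes are 1-acyl-sn-glycerol-3-phosphate acyltransferases, which act in phospholipid synthesis. The chain-elongating 3-ketoacyl-CoA synthases were found in both directions. Synthase 11-like Ma07_g08400 was at 225 FPKM in low-potassium root and 95.7 FPKM in normal-potassium root, while the 11-like gene Ma10_g00140 was at 3.25 FPKM in low and 34.6 FPKM in normal potassium. In leaf 4 of 5 listed genes were higher, beside 67.4% of all listed leaf genes. The largest increase of them was that of synthase 19-like Ma04_g24510, at 60.6 FPKM in low and 9.23 FPKM in normal potassium.

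Subfamily A, to which belongs a supplier of fatty acids for storage lipids in Arabidopsis, had 1 gene in each direction in root. ABCA7-like (Ma07_g25310) was at 48.6 FPKM in low-potassium root and 23.1 FPKM in normal-potassium root (2.10-fold higher, interval 1.82 to 2.43), the highest level among the root members described as ABC transporters in low potassium. ABCA8-like (Ma08_g05540) was at 0.66 FPKM in low and 2.68 FPKM in normal potassium, from 8 fragments in low and 34 in normal potassium (4.06-fold lower, interval 1.84 to 10.2).

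**Figure D3:**
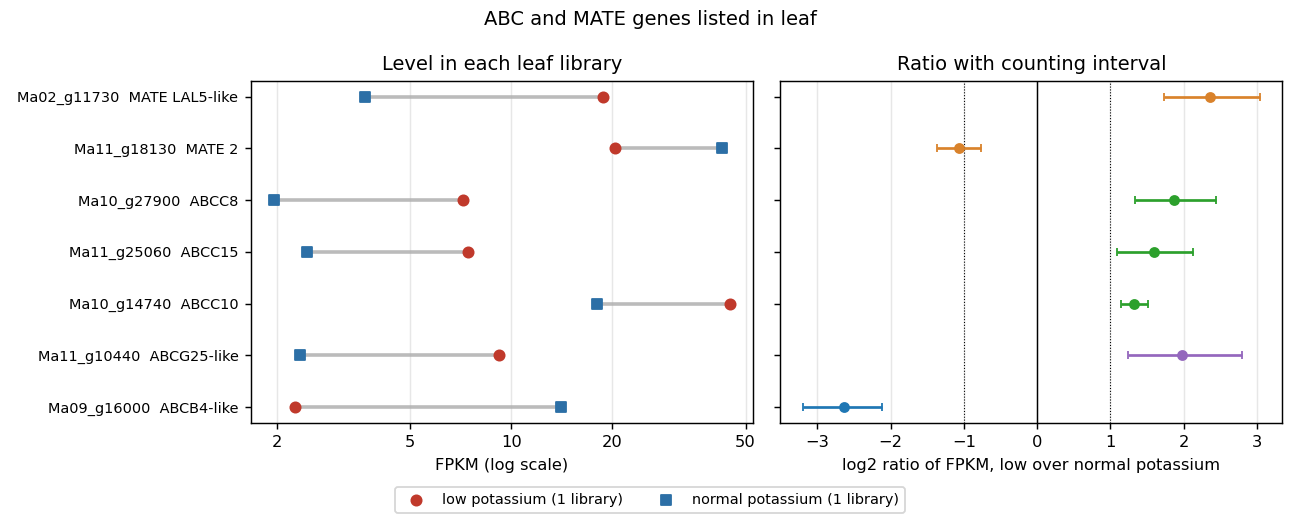
Left, level of the 7 leaf members in low-potassium leaf (red circles) and normal-potassium leaf (blue squares), in FPKM on a log scale. Right, log2 ratio of low over normal potassium with 95% counting intervals and dotted lines at a 2-fold difference. The 3 ABCC genes, the ABCG25-like gene and the LAL5-like gene lie right of 0, and ABCB4-like lies at -2.64.

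In leaf, the ABCC10 gene Ma10_g14740 had the highest level of any member in low potassium. It was at 45.0 FPKM in low-potassium leaf and 18.0 FPKM in normal-potassium leaf (2.504-fold higher, interval 2.21 to 2.85). Its log2 ratio of 1.32 equals the median of all listed leaf genes. ABCC8 (Ma10_g27900) was at 7.17 FPKM in low and 1.96 FPKM in normal potassium (3.66-fold higher, interval 2.52 to 5.42), and the putative ABCC15 gene Ma11_g25060 at 7.44 FPKM in low and 2.46 FPKM in normal potassium (3.02-fold higher, interval 2.13 to 4.38). The intervals of these 3 pumps overlapped one another.

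An ABCB gene and a MATE gene were lower in leaf. ABCB4-like (Ma09_g16000), named after an Arabidopsis auxin carrier of roots, was at 2.26 FPKM in low-potassium leaf and 14.04 FPKM in normal-potassium leaf (6.21-fold lower, interval 4.34 to 9.14). MATE efflux protein 2 (Ma11_g18130), described as a chloroplast protein, was at 20.4 FPKM in low and 42.6 FPKM in normal potassium (2.09-fold lower, interval 1.70 to 2.58). In normal-potassium leaf it was the most abundant member. ABCB4-like and the LAL5-like gene were the leaf members past 4-fold, 2 of 7, beside 34.8% of all listed leaf genes.

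**Figure D4:**
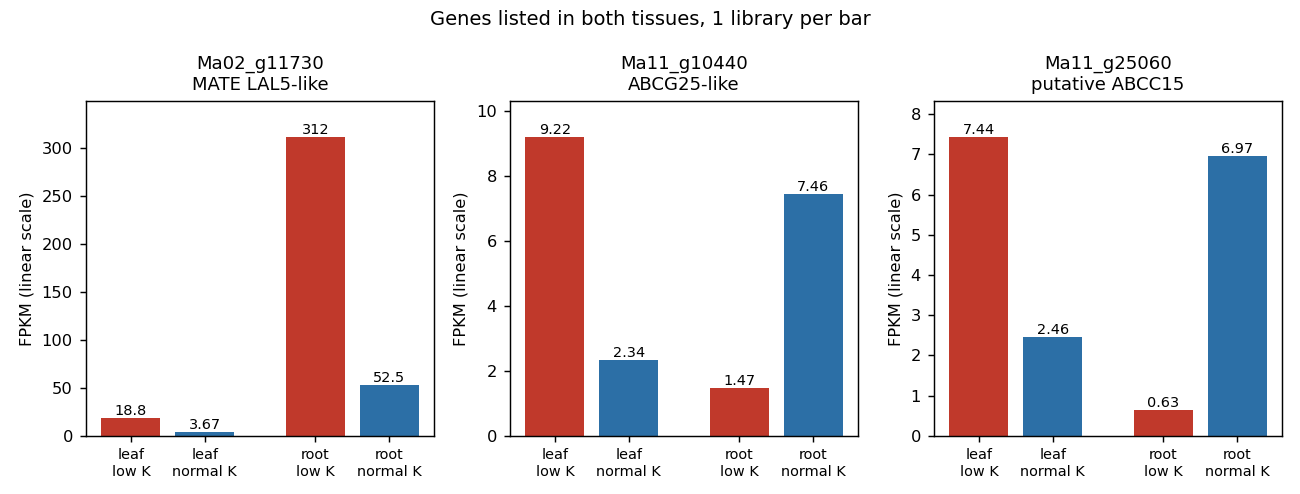
FPKM on a linear scale of the 3 genes listed in both tissues, 1 library per bar, with low potassium left of normal potassium in each tissue. The LAL5-like gene is higher in low potassium in both tissues, while ABCG25-like and the putative ABCC15 gene are higher in low-potassium leaf and lower in low-potassium root.

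The 3 genes listed in both tissues are 42.9% of the leaf members and 10.3% of the root members. Over all genes, the 410 listed in both are 34.7% of the leaf table and 8.64% of the root table. The LAL5-like gene Ma02_g11730 was at 18.8 FPKM in low-potassium leaf and 3.67 FPKM in normal-potassium leaf (5.11-fold higher, interval 3.31 to 8.20), a ratio close to the 5.94-fold of root. Its level in root was 16.6 times that in leaf in low potassium and 14.3 times in normal potassium, both far above leaf.

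The other genes listed in both tissues had opposite directions in the tissues. ABCG25-like (Ma11_g10440) was 3.94-fold higher in low-potassium leaf, at 9.22 FPKM against 2.34 FPKM in normal-potassium leaf (interval 2.35 to 6.91), and 5.07-fold lower in low-potassium root. The putative ABCC15 gene (Ma11_g25060), described above for each tissue, was higher in leaf by 3.02-fold but lower in root by 11.1-fold. In normal potassium the root level of both was above the leaf level, 3.19 times for ABCG25-like and 2.83 times for ABCC15. In low potassium the leaf level was above the root level, 6.27 times and 11.8 times. Of the 410 genes listed in both tissues, 27.1% had opposite directions, and 19.8% were, like these, higher in leaf and lower in root. The difference between tissues was not tested.

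**Figure D5:**
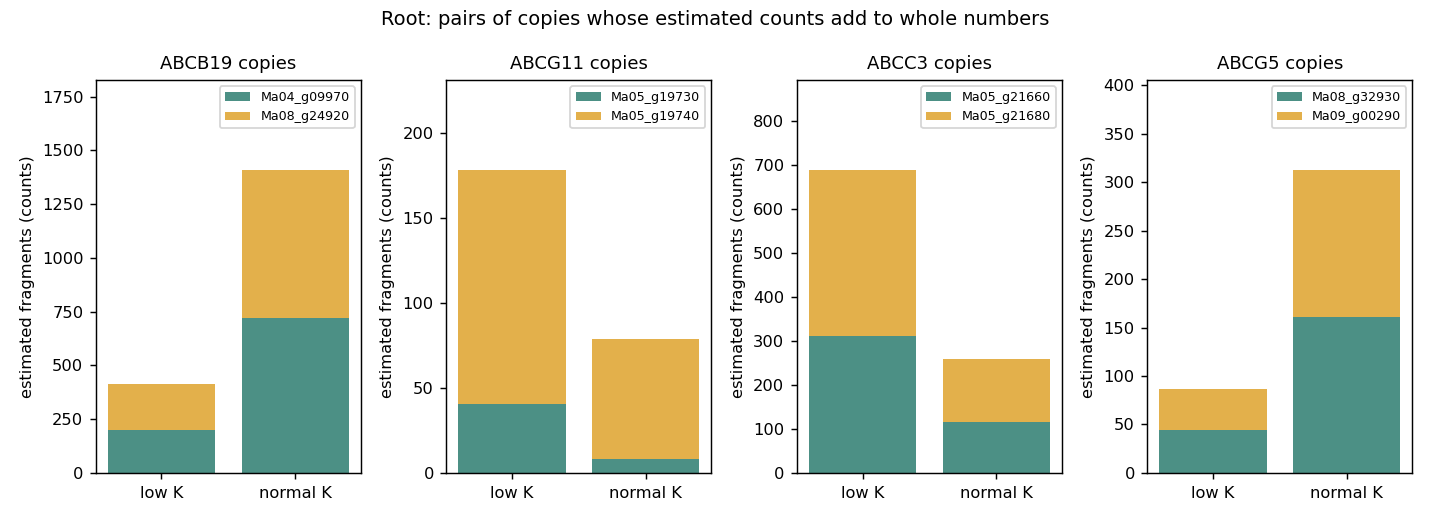
Estimated fragment counts of 4 pairs of root members, stacked, in low-potassium root (left bar) and normal-potassium root (right bar). The ABCB19 and ABCG5 pairs sum to fewer fragments in low potassium, and the ABCG11 and ABCC3 pairs to more.

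The counts of 15 of the 29 root members are not whole, which happens where fragments that match several copies are shared out between them. For 8 of them the estimated counts add up in pairs, within 0.015, to whole numbers in both libraries, a pattern looked for after the values were seen. The pairs are the ABCB19, ABCC3-like, ABCG11-like and ABCG5-like copies, which carry the same name. The sum does not depend on how the fragments were shared within a pair. The ABCB19 copies summed to 414 fragments in low-potassium root and 1407 in normal-potassium root, 3.22-fold lower per fragment assigned (interval 2.88 to 3.60). The ABCC3-like copies summed to 687 fragments in low and 259 in normal potassium, 2.80-fold higher (interval 2.43 to 3.24). Summed ABCG5-like copies were 3.40-fold lower (87 fragments in low and 312 in normal potassium, interval 2.67 to 4.36). For ABCG11-like the sum was 2.38-fold higher (178 fragments in low and 79 in normal potassium, interval 1.82 to 3.14). This sum is made up mostly of Ma05_g19740, and how many fragments the copies shared is not known.

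Some pumps and carriers of these families go by other names in the deposited descriptions. In root 3 of 4 were higher, beside 40.4% of all listed root genes. In leaf both were lower, beside 32.6% of all listed leaf genes. The pleiotropic drug resistance protein 3-like gene Ma09_g02930, a long ABCG-type pump, was at 112 FPKM in low-potassium root and 30.0 FPKM in normal-potassium root (3.74-fold higher, interval 3.41 to 4.10). In leaf another gene of that name, Ma06_g36450, was at 1.63 FPKM in low and 8.35 FPKM in normal potassium, and a MATE carrier named TRANSPARENT TESTA 12-like (Ma02_g05510), after an Arabidopsis flavonoid carrier, was at 12.3 FPKM in low and 30.1 FPKM in normal potassium.

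MATE carriers draw on proton gradients, which proton pumps make. Of the 12 proton pump genes listed in root, 10 were lower, beside 59.6% of all listed root genes. All 6 vacuolar pyrophosphatases were lower, with a summed level of 133 FPKM in low-potassium root and 417 FPKM in normal-potassium root, and all 4 V-type ATPase subunits were lower. Both plasma membrane ATPase genes were higher, led by Ma10_g30850 at 155 FPKM in low and 52.2 FPKM in normal potassium. Malate is released by another family, the aluminum-activated malate transporters. Both genes of this family listed in root were higher, beside 40.4% of all listed root genes. Ma02_g11790 was at 30.8 FPKM in low-potassium root and 1.37 FPKM in normal-potassium root (22.5-fold higher, interval 11.6 to 49.9).

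Marker genes of cell types also differed between the libraries. All 3 green tissue genes listed in root were higher, beside 40.4% of all listed root genes. Their summed level was 81.2 FPKM in low-potassium root and 16.7 FPKM in normal-potassium root. Both genes of the Casparian strip membrane protein family, whose best-known members mark the root endodermis, were higher in root, at a sum of 31.0 FPKM in low and 5.11 FPKM in normal potassium. In leaf all 7 listed green tissue genes were higher, beside 67.4% of all listed leaf genes. In sum they were at 1037 FPKM in low and 375 FPKM in normal potassium. No Casparian strip protein was listed in leaf. The part of these markers in the ratios of the ABC and MATE genes was not tested. Unlisted marker genes were not analysed here, so the tissue labels could be checked no further.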

How the data were processed

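Per the file headers, the authors deposited for each tissue a table of genes with FPKM values, estimated counts of fragments, a log2 ratio (low over normal), and an FDR with its p-value. Which aligner, counter, build and test made them is not given in the sources used. As deposited, the p-value and FDR of members were used for no call, and the largest FDR of a member in the authors' deposited table was 8.44e-08 in leaf and 0.000803 in root. The deposited FPKM values gave the folds, and the deposited counts, rounded, the exact (Clopper-Pearson) 95% intervals, scaled to the FPKM fold. No member had a count of 0 in a library where it is listed. In leaf 6 of 7 and in root 19 of 29 intervals lay beyond 2-fold. Every member was listed for a ratio of at least 2-fold, which favours this outcome. The share over all listed genes was not computed, so the count is no result about the members.

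Fragments assigned to genes were computed as the slope of count over FPKM on gene length, over genes of more than 100 fragments and 5 FPKM that lay within 1% of the line. Scripts ran in Python 3.11.15 with pandas 2.3.3, numpy 2.4.6 and scipy 1.17.1, and were tested on simulated data. The library preparation described in the labels does not mark the strand, so antisense reads cannot be told apart.

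Members, the 6 lists of related genes, the 2 marker lists and the rule for named genes were chosen with earlier results of these data known. The rule names every leaf member, members listed in both tissues, the extremes of ratio and level in each family of root, and neighbours in gene number. It does not reach Ma06_g20080, Ma08_g27180, Ma09_g00290, Ma08_g01960 and Ma06_g26010. These were named as well, so that all 33 genes appear. Lists were read from words in the descriptions. The alternatives tried were scaled counts, a pseudocount of 1 FPKM, centring on the median of all listed genes, a mean FPKM of at least 5, whole counts only and, added later, genes of these families under other names and summed copies. The potassium table, which holds none of these genes, was not used.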

Additional observations from a re-analysis of the deposited data

Results flagged for a closer look

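The genes below had opposite directions in leaf and root, and the difference between tissues was not tested. ABCG25-like (Ma11_g10440) had a log2 ratio, low against normal potassium, of 1.98 in leaf and -2.34 in root. The putative ABCC15 gene (Ma11_g25060) had a log2 ratio of 1.60 in leaf and -3.47 in root, where it rests on 11 fragments in low potassium and 129 in normal potassium.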

How the results depend on the processing

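No paired analysis was possible because each group has 1 library, and for the same reason no library could be left out. With scaled counts in place of FPKM, no count, median or member ratio changed its direction or left its interval. The totals used for scaling were computed from the same deposited counts and FPKM values. This outcome was therefore nearly fixed in advance and is no separate check. Centring moved the median log2 ratio to 0.27 in leaf (main 1.60), to -0.14 in root (main -1.34), to -0.29 for ABC genes in root (main -1.50) and to 3.17 for MATE genes in root (main 1.97), by its own construction. The medians of all listed genes that it subtracts, 1.32 in leaf and -1.20 in root, are set in part by the authors' limits. With 1 FPKM added, 4 root members in place of 8 stayed past 4-fold, and Ma11_g25060 in root had a log2 ratio of -2.29 in place of -3.47. Among genes with a mean FPKM of at least 5, 3 of 5 leaf members were higher, 2 of 19 root members were past 4-fold, and the MATE median in root was 1.35. With whole counts only, 7 of 14 root members were higher and the root median was -0.19. A smaller share of the ABC than of the MATE genes has whole counts in root (8 of 21 and 6 of 8). With genes of these families under other names added, 5 of 9 in leaf and 16 of 33 in root were higher. The separate ABC and MATE medians in root were not recomputed with these genes. Low counts limit the least abundant genes, and 1 library per group limits every result.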
